A study of Mus musculus with 4 samples.

Results

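The imprint control regions of Peg3, Snrpn and Kcnq1ot1 are the 3 maternally methylated control regions of mouse chromosome 7 examined here. They were taken as the CG sites of chr7:6679000-6685000 (Peg3), chr7:67147000-67152000 (Snrpn) and chr7:150480000-150483500 (Kcnq1ot1) in mm9. The coordinates use no methylation value, but they were set with earlier results of these data known. Of the CG sites listed there, 150 of 160 at Peg3, 62 of 76 at Snrpn and 94 of 112 at Kcnq1ot1 had at least 5 reads in each of the 4 libraries. These 306 sites stand among 2638319 such sites on chromosomes 1 to 19, X and Y.

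An imprint control region is a CG-rich element that is methylated in the germ cells of one parent only, and the mark is kept through fertilization so that the genes around it are read from a single parental chromosome. At the Peg3, Snrpn and Kcnq1ot1 regions the mark is set in the growing oocyte, and the unmethylated paternal copy is the active one. In somatic cells, 1 parental copy of each region is methylated and the other is not, whereas sperm carry only the unmethylated form.

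Genomic DNA of spermatozoa from adult wild-type C57BL/6 males was read by TGBS (targeted bisulfite sequencing), in which capture probes enrich chosen DNA, bisulfite converts unmethylated cytosines, and the share of reads that keep a cytosine gives the methylation level of a CG site. There were 2 libraries of swim-up sperm, a fraction selected for its motility, and 2 of HRCS, the sperm that have completed the replacement of histones by protamines. In the paper's staining assay only a small part of swim-up sperm had not completed this replacement. The comparison is thus not one of completed against incomplete sperm. HRCS were the dense sperm heads pelleted through Percoll after mild sonication of total sperm from caudal epididymis and vas deferens. The libraries held between 71379227 and 89403347 calls, a call being the state of 1 CG site in 1 read.

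The 3 regions lie over gene starts. RefSeq promoters were placed on the mm9 sites by the spacing of their CG dinucleotides. This put the starts of Peg3, Snrpn and Kcnq1ot1, all on the minus strand, at positions 6683130, 67150085 and 150482452. RefSeq listed 4 promoters of Snrpn, of which 1 could be placed, and the Snrpn start and promoter below mean that one only. Every CG site listed in the 3 regions had a CG at the matching place of GRCm38, whose annotation was then read. At Peg3, which encodes a zinc finger protein, 100 of the 150 sites lay in introns and 15 in exons of Peg3, and 30 lay in exons of Usp29, a ubiquitin peptidase gene that is read in the other direction. At Snrpn, which encodes a protein of the spliceosome and shares its transcript with Snurf, 57 of the 62 sites were intronic and 5 exonic in Snrpn. These include the sites upstream of the placed start, so the annotated gene begins further upstream. At Kcnq1ot1, a long noncoding RNA read antisense to the potassium channel gene Kcnq1, all 94 sites were in an intron of Kcnq1 and 85 of them lay within Kcnq1ot1 itself.

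The bases just before the 3 placed starts are shown because these starts lie within the regions. They are given 5′ to 3′ on the minus strand from RefSeq on GRCm38.p6, 250 bases each, at chr7:6730420-6730669 for Peg3, chr7:60005200-60005449 for Snrpn and chr7:143296548-143296797 for Kcnq1ot1, with the CG sites in capitals.
Peg3: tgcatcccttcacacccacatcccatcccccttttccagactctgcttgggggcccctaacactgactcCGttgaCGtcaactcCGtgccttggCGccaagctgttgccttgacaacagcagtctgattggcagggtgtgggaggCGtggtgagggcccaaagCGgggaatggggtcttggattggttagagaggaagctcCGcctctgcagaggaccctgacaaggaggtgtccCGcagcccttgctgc
Snrpn: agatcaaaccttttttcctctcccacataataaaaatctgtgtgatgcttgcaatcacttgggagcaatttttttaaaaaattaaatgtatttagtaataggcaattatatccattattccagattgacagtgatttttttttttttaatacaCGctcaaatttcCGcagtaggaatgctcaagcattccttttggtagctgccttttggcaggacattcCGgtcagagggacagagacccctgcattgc
Kcnq1ot1: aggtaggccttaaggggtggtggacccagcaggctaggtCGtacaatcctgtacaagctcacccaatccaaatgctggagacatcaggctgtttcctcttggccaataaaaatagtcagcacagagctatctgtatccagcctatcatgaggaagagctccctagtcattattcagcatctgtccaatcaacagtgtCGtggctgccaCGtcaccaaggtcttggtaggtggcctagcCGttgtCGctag
The Peg3 sequence held 8 CG sites, the Snrpn sequence 3 and the Kcnq1ot1 sequence 5. With the 50 bases after the start, the promoters held 13, 7 and 9. They differed in base composition, with 61.3% G and C at Peg3, 53.3% at Kcnq1ot1 and 40.3% at Snrpn over the 300 bases. The hexamer TGCCGC, whose methylated form is bound by ZFP57, a zinc finger protein that keeps imprints after fertilization, was searched on both strands. It was found once, on the opposite strand across the Snrpn start, and not in the other two promoters, and 11.6% of 32851 promoters of this length held it. The motif GCCATNTT of the factor YY1 was in none of the 3 promoters and in 6.05% of all. Both motifs were searched only in these promoters of 300 bases, so nothing is said about the rest of the regions.

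These promoters carried almost no methylated calls in either fraction. At the Peg3 promoter, the swim-up libraries had 5 methylated of 356 calls and 5 of 258, against 7 of 588 and 1 of 515 for HRCS. At Snrpn there were 2 of 86 and 0 of 71 in swim-up sperm and 0 of 126 and 1 of 130 in HRCS, over the 6 sites with enough reads. At Kcnq1ot1 there were 3 of 194, 5 of 219, 4 of 272 and 6 of 266 in the same order of libraries. The 0 of 71 calls at Snrpn in swim-up replicate 2 would allow a level of up to 4.23% if calls were independent. The 6 sites had only 9 to 16 reads each in that library. A read is counted at every site it spans, so the level that can be allowed is higher.

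Across the whole regions the mean methylation level, the plain mean over qualifying sites, stayed below 5% in every library. The Peg3 region was at 2.58% and 3.13% in swim-up sperm and at 2.52% and 1.96% in HRCS. The Snrpn region was at 2.59% and 1.52% in swim-up sperm and at 1.36% and 2.24% in HRCS. The Kcnq1ot1 region was at 4.61% and 2.36% in swim-up sperm and at 3.23% and 3.41% in HRCS. Its swim-up libraries were the farthest apart of the 3 regions, by 2.25 points, and its HRCS libraries the closest, by 0.184. The 4 libraries thus showed all 3 regions in the unmethylated form that the paternal copy carries. These values rest on 3315 to 5798 calls per library at Peg3, 927 to 1843 at Snrpn and 2441 to 3555 at Kcnq1ot1. Pooled over sites, 87 of 4165 calls were methylated at Peg3 in swim-up replicate 1, or 2.09% with a Wilson 95% interval of 1.70 to 2.57%. The smallest sample, Snrpn in swim-up replicate 2, had 18 of 927 methylated calls, or 1.94% with an interval of 1.23 to 3.05%. Such intervals cover counting error only, since a read is counted at every site it spans and copies made by PCR are not independent molecules.

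A large share of these means came from few sites at the edge of the windows. At Peg3, the sites at 6684771, 6684773 and 6684825, 1641 to 1695 bp upstream of the start, had mean levels of 49.5%, 65.6% and 52.3% over the 4 libraries. At the first of them the 4 libraries gave 2 of 9, 4 of 5, 7 of 17 and 6 of 11 methylated reads, so its level is poorly fixed in any single library. The last site before them, at 6684007, lay 877 bp upstream of the start. Between these, 8 sites with too few reads for the minimum had 69 of 82 methylated reads over the 4 libraries, or 84.1%, so the low stretch of Peg3 ended within this gap. At Kcnq1ot1, the levels at 150483088, 150483144 and 150483199 were 66.5%, 55.9% and 100%, and the last low site before them, at 150482809, was 357 bp upstream of the start. All reads at 150483199 were methylated in each library, 10 of 10, 11 of 11, 9 of 9 and 10 of 10. The Snrpn region held no site of this kind among those with enough reads, and its 3 highest sites, at 67147619, 67147692 and 67148165, averaged 13.2%, 9.35% and 6.82%. Of these, 67147619 and 67147692 lie near the outermost qualifying site on the downstream side, at 67147461.

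**Figure D1:**
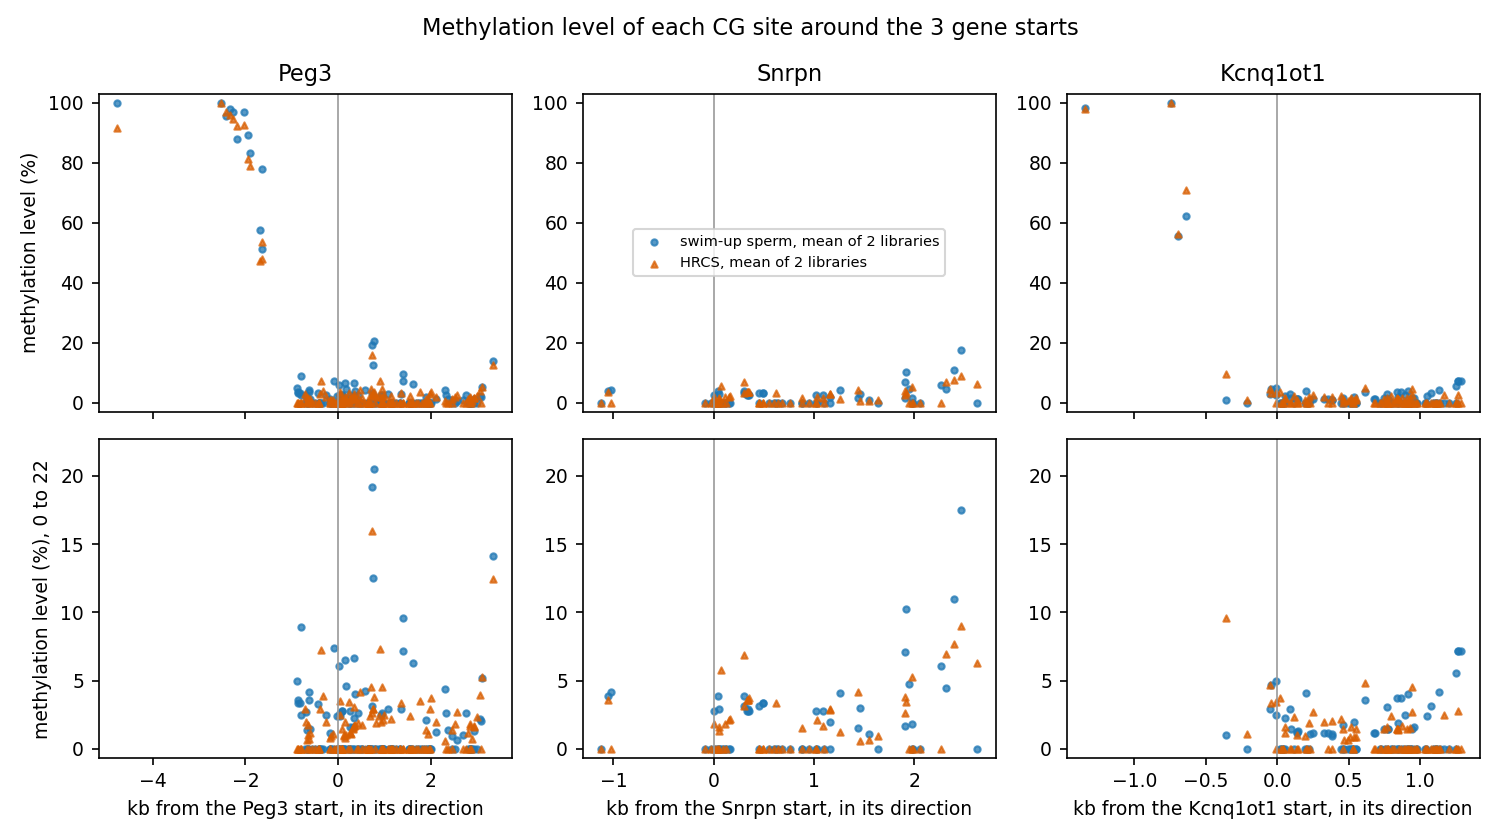
Methylation level of each qualifying CG site (vertical axis, %) against its distance in kb from the gene start placed on mm9 (horizontal axis, negative values upstream), as the mean of the 2 swim-up libraries (circles) and of the 2 HRCS libraries (triangles); the lower row repeats the upper one with the axis cut at 22%. Upstream of Peg3 and Kcnq1ot1 the level rises from near 0 to between 49.5% and 100% (mean of the 4 libraries) within the regions, while at Snrpn all qualifying sites remain low.

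Measured outward from the centre of each region to the first site at 50% or more, the low stretch spanned 1646 bp at Kcnq1ot1, from 150481164 to 150482809, with the border site at 150483088. At Peg3 it spanned 4985 bp by the mean of the 4 libraries, a length that runs past the 8 sparsely read and mostly methylated sites of the gap and so overstates the low stretch, and 4221 bp in swim-up replicate 2 and HRCS replicate 2, where the site at 6684771 was already above 50%. At Kcnq1ot1, swim-up replicate 2 alone gave a longer stretch, 1981 bp, because its level at 150483088 was 4 of 9 reads. At Snrpn the stretch of covered low sites was 3745 bp in all 4 libraries, and no qualifying site at 50% or more was reached on either side. The nearest upstream sites with methylated reads there, at 67151933 and 67152059, had 10 of 13 and 15 of 16 methylated reads over the 4 libraries. On the downstream side no qualifying border site was reached at any of the regions. At Kcnq1ot1, 14 sparsely read sites from 150480736 to 150481132 had 2 of 98 methylated reads, so low methylation went on below the last qualifying site. At Peg3 the only site with reads between the last qualifying one, at 6679787, and 1 kb beyond the region was 6679423. It lies inside the region, had too few reads for the minimum and had 7 of 7 methylated reads. The low stretch of Peg3 may thus end within the region on this side too. At Snrpn the only site with reads between the last qualifying one, at 67147461, and 1 kb beyond the region was 67147381. It had 4 of 18 methylated reads. The downstream flank of Snrpn had 8 of 9 and 8 of 8 methylated calls in swim-up sperm, and 7 of 7 and 5 of 6 in HRCS. Where the low stretch of Snrpn ends on this side is thus not fixed.

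The flanks were methylated where they could be read, but few of their sites were. Within 20 kb on either side, 9 of the 399 listed sites at Peg3, 1 of 302 at Kcnq1ot1 and 0 of 191 at Snrpn had 5 reads in every library, all of them upstream of the gene starts. The 9 Peg3 sites, of which 8 lay within 665 bp of the region, averaged 92.0% and 96.2% in swim-up sperm against 91.6% and 91.5% in HRCS. The single Kcnq1ot1 site, at 150483796, had 20 of 20, 27 of 28, 31 of 31 and 42 of 44 methylated reads. The level of the flank exceeded that of the region by 90.3 ± 1.85 percentage points at Peg3 and by 94.6 ± 2.01 points at Kcnq1ot1 (SD, n = 4 libraries), in 4 of 4 libraries each. The two-sided exact sign permutation test gave p = 0.13 for both, the smallest that 4 libraries allow. With all calls of all flank sites pooled and no minimum, Snrpn flanks were at 77.1% and 82.2% in swim-up sperm against 77.1% and 80.4% in HRCS, 76.8 ± 2.41 points above the region (exact sign permutation test, p = 0.13). In the lower flank of Kcnq1ot1 the pooled level was 59.1% and 63.8% in swim-up sperm against 95.3% and 92.3% in HRCS. This gap lay in 9 closely spaced CG sites from 150474707 to 150474724, which had 0 of 36 and 0 of 18 methylated calls in the swim-up libraries and no call in HRCS. A single read can be counted at all 9 of these sites, so the calls may stand for only a few reads. The other sites of that flank were at 100% and 92.5% in swim-up sperm against 95.3% and 92.3% in HRCS.

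The H19 imprint control region, which is methylated on the paternal copy and lies on the same chromosome at chr7:149766000-149768500, was read as the opposite case. Over 37 of its 69 sites the level was 97.7% and 97.4% in swim-up sperm against 97.0% and 96.2% in HRCS. The 3 maternal regions and H19 thus stood near 0 and near 100% in the same 4 libraries.

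Without the upstream sites of intermediate or full methylation, the residual level averaged over the 4 libraries was 1.46% at Peg3, 1.93% at Snrpn and 1.07% at Kcnq1ot1. Sites were kept up to the first at 25% or more on each side, a limit chosen after the values had been seen, which left 147 sites at Peg3, 91 at Kcnq1ot1 and all 62 at Snrpn. Those of Snrpn include its highest sites, 67147619 and 67147692, near a downstream end where no border was reached. The residual level was then 1.74%, 1.55%, 1.44% and 1.10% at Peg3 in the order swim-up replicates 1 and 2 and HRCS replicates 1 and 2. At Kcnq1ot1 it was 2.05%, 0.362%, 0.818% and 1.05%, so that the swim-up libraries were the highest and the lowest of the 4. The mean over 22208 windows of 200 bp with at least 20 listed CG sites, anywhere in the genome, was 1.48%, 1.31%, 1.52% and 1.49% in these libraries, with a median of 1.11% over windows. These windows were not trimmed by level as the regions were, and 0.311% of them were above 25%. They were single windows of 200 bp and denser in CG than the regions. Inside the borders the regions held 34.8 (Peg3), 19.2 (Snrpn) and 55.3 (Kcnq1ot1) listed sites per kb. Averaged over the libraries, 45.8% of these windows were at or below the residual level of Kcnq1ot1. The shares were 75.9% for Peg3 and 89.7% for Snrpn. With all qualifying sites of the regions they were 97.8% for Kcnq1ot1, 95.6% for Peg3 and 89.7% for Snrpn. These shares do not place the regions among DNA of like CG density or length. The source of the residual methylated calls was not tested.

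**Figure D2:**
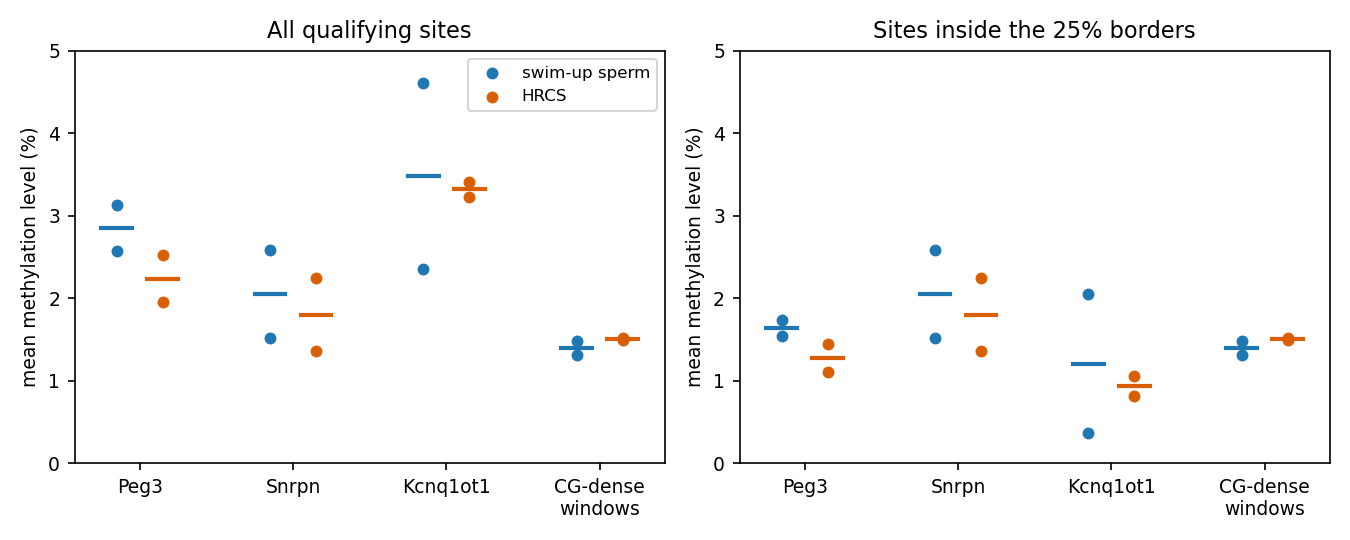
Mean methylation level (vertical axis, %) of the 3 regions and of the 22208 CG-dense windows in each library (points; swim-up sperm in blue, HRCS in orange), with the mean of the 2 libraries of a fraction as a bar; the left panel uses all qualifying sites and the right panel only those inside the 25% borders. All points lie below 5%, and Kcnq1ot1 moves from the highest mean, 3.40% over the 4 libraries, to the lowest, 1.07%.

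The order of the 3 regions was not stable. With all sites, Snrpn was lower than Kcnq1ot1 in 4 of 4 libraries, by 1.48 ± 0.564 percentage points (SD, n = 4; exact sign permutation test, p = 0.13, adjusted over the 3 pairs p = 0.375). With the sites inside the 25% borders the order was the opposite in 4 of 4 libraries, with Snrpn higher by 0.856 ± 0.367 points (exact sign permutation test, p = 0.13, adjusted p = 0.375). Peg3 minus Snrpn was 0.617 ± 0.911 points and Peg3 minus Kcnq1ot1 was -0.859 ± 1.21 points with all sites, both within the spread between libraries (exact sign permutation test, p = 0.5 and 0.375). No ranking of the regions by residual level is therefore given.

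HRCS were compared with swim-up sperm at each region. At Snrpn and Kcnq1ot1 the difference was within the spread of the replicates, and at Peg3 it was slightly larger than the distance between them in the plain mean over sites, but not under every setting. HRCS minus swim-up sperm was -0.613 percentage points at Peg3, -0.256 at Snrpn and -0.164 at Kcnq1ot1. At Peg3 both HRCS libraries were below both swim-up libraries, with means of 2.24% ± 0.40 against 2.85% ± 0.389 (SD, n = 2 each), while the 2 libraries of a fraction were 0.550 and 0.565 points apart. Such a separation, in either direction, was seen in 32.7% of the 316993 windows of 200 bp measured across the genome. By window it was seen, in either direction, in 10 of 18 at Peg3, 2 of 9 at Snrpn and 1 of 9 at Kcnq1ot1. The separated Peg3 windows went both ways. For example, both HRCS libraries were lower in chr7:6683201-6683400 and higher in the adjoining chr7:6683401-6683600. The Peg3 count therefore does not speak for a lower level in HRCS. Neighbouring windows are not independent, and these counts were not tested. For the whole Peg3 region the separation was lost when calls were pooled over sites, at -0.238 points. It was also lost at a minimum of 20 reads per site, at -0.379 points (exact permutation test, p = 0.667 each). Without swim-up replicate 2 or HRCS replicate 2 the Peg3 difference was -0.338 and -0.330 points. At Snrpn the fractions overlapped, with 1.80% ± 0.626 in HRCS and 2.06% ± 0.756 in swim-up sperm, and the direction was not stable. They did not overlap at minimums of 10 and 20 reads per site, with HRCS lower by a difference of -1.06 and -0.960 points, nor at a minimum of 1 read, with HRCS higher by 0.594 points (exact permutation test, p = 0.333 each). The Snrpn difference was 0.273 points without swim-up replicate 1 and 0.186 without HRCS replicate 1, against -0.700 without swim-up replicate 2 and -0.801 without HRCS replicate 2. At Kcnq1ot1 they overlapped as well, with 3.32% ± 0.130 against 3.49% ± 1.59, and the difference was 0.981 points without swim-up replicate 1 and -1.29 points without swim-up replicate 2. Leaving out HRCS replicate 1 or HRCS replicate 2 gave -0.0717 and -0.255 points at Kcnq1ot1. The two-sided exact permutation tests gave p = 0.333, 0.667 and 1, and 0.333 is the smallest that 2 libraries against 2 allow. The labels do not say that the replicates are separate animals, so these values describe the spread between libraries, which may be technical.

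In edgeR's quasi-likelihood test over all windows, 0 of the 36 windows of the 3 regions passed an adjusted p of 0.05, and none did so before adjustment (0 of 36 with p below 0.05). Most of these windows held few methylated calls, and the adjustment ran over 316993 windows with 2 libraries per fraction. The test had little power here, so its outcome does not show that the levels were equal. The percentage of all windows that passed the adjusted p was 0.00284, or 9 windows, and 4.6% had p below 0.05 before adjustment. When calls were pooled by fraction, Fisher's exact test gave 0 of 36 past the adjusted p and 1 before adjustment, against 0.756% and 9.66% of all windows. HRCS was higher in 16 of the 36 windows and lower in 20. The largest difference at Peg3 was in chr7:6681601-6681800, downstream of the start, where swim-up sperm had 3 methylated of 59 calls and 2 of 40 and HRCS had 1 of 52 and 0 of 72 (edgeR, adjusted p = 1). At Snrpn it was in chr7:67147601-67147800, with 8 methylated of 84 calls and 5 of 49 for swim-up sperm and 12 of 149 and 9 of 110 for HRCS (edgeR, adjusted p = 1). At Kcnq1ot1 it was in chr7:150481001-150481200, where swim-up sperm had 4 methylated of 36 calls and 0 of 29 and HRCS had 0 of 40 and 1 of 90 (edgeR, adjusted p = 1). The Peg3 and Kcnq1ot1 windows held 6 and 5 methylated calls over the 4 libraries, and in the Kcnq1ot1 window all methylated swim-up calls were in 1 library.

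Inside the borders the residual methylated calls were scattered thinly and in part grouped. Of all qualifying sites, 48 of 150 at Peg3, 19 of 62 at Snrpn and 28 of 94 at Kcnq1ot1 had no methylated read in any library. Within the low stretch of Peg3, 3 sites averaged 10% or more, 13.3% at 6679787, 12.1% at 6682356 and 17.6% at 6682409. They are named here after their values had been seen, and 6679787 is the outermost qualifying site on the downstream side. The site at 6682356 rested on swim-up replicate 2, with 5 of 14 methylated reads against 1 of 19, 1 of 26 and 1 of 27 in the others, and averaged 4.27% without it. At 6679787 the libraries had 11 of 39, 0 of 31, 7 of 70 and 7 of 47 methylated reads, and the mean was 8.30% without swim-up replicate 1. At 6682409 they had 1 of 9, 3 of 11, 4 of 17 and 2 of 24 methylated reads. This site had the highest mean inside the Peg3 borders and was picked for it. At such depth 1 methylated read already lifts a library above the residual level, so no more is read from it. Runs of at least 5 consecutive sites within 100 bp with a methylated call in the same library were also looked for after the data had been seen, and 5 were found, 3 at Peg3 and 2 at Snrpn. Both Snrpn runs covered the same 6 sites, from 67149738 to 67149787, 50 bp long, where each of the 6 sites had 1 methylated read in swim-up replicate 1. In HRCS replicate 2 these 6 sites had 2 or 3 methylated reads each, 13 methylated of 181 calls, against 0 of 38 in swim-up replicate 2 and 1 of 120 in HRCS replicate 1. At Peg3 a run of 6 sites from 6683928 to 6684008, the upstream end of the low stretch, also had exactly 1 methylated read at each site in swim-up replicate 1. Another Peg3 run of 6 sites, from 6682774 to 6682817, had exactly 1 methylated read at each site in HRCS replicate 2. The remaining Peg3 run, from 6682356 to 6682428 in HRCS replicate 1, holds the sites 6682356 and 6682409 named above, which are therefore not independent. Neighbouring calls in such runs are not independent, and whether they came from the same read cannot be told from the tables.

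The other genes of the 3 domains were read at their promoters. Of 26 genes listed, 20 were in the RefSeq promoter table, 18 could be placed by their CG spacing and 17 had qualifying sites, with Snrpn and Snurf sharing a promoter. Their means over the 4 libraries ran from 0.621% at Ndn, which encodes necdin, to 1.74% at Kcnq1ot1. In the Peg3 domain, Zim1 and Zim2, zinc finger genes, averaged 0.882% and 1.16%. Usp29, whose promoter overlaps that of Peg3 and shares its sites, averaged 1.07%. In the Snrpn domain, the paternally expressed genes Magel2, Mkrn3 and Peg12 averaged 1.22%, 1.06% and 1.42%. Ube3a, a ubiquitin ligase gene expressed from the maternal copy in neurons, was at 1.08% and Atp10a, a phospholipid transporter gene, at 0.956%. In the Kcnq1 domain, Phlda2 and Ascl2, which are expressed from the maternal copy in the placenta, averaged 1.33% and 1.60%, and Tssc4 and Cd81, a tetraspanin gene, 0.959% and 0.896%. Low levels are common in these libraries, as 131789 of the 316993 windows had a mean of 5% or less, so nothing about imprinted genes is read from these promoters.

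The Th promoter, the start of tyrosine hydroxylase, was the exception among the 18 placed. Its sites did not reach the minimum of reads, and methylated calls were 25 of 25 and 10 of 11 for swim-up sperm and 23 of 23 and 18 of 18 for HRCS. Between the fractions, the Peg3 promoter was at 1.70% and 1.69% in swim-up sperm against 1.15% and 0.202% in HRCS, and the Mkrn3 promoter at 1.28% and 1.46% against 0.685% and 0.801%. Phlda2 went the other way, with 0.961% and 1.21% against 1.54% and 1.61%. With Usp29, which shares the Peg3 sites, 4 of the 17 genes had fractions that did not overlap, beside 32.7% of all windows. Such a count is near the background, and the genes counted are not independent, since Snrpn and Snurf share a promoter too. Each of the 4 reached p = 0.333 in the exact permutation test, the smallest possible, and rested on no more than 13 methylated calls in any library. Zim3, Zfp264, Apeg3, Kcnq1, Cdkn1c, Nap1l4, Slc22a18 and Tspan32 have no value here.

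**Figure D3:**
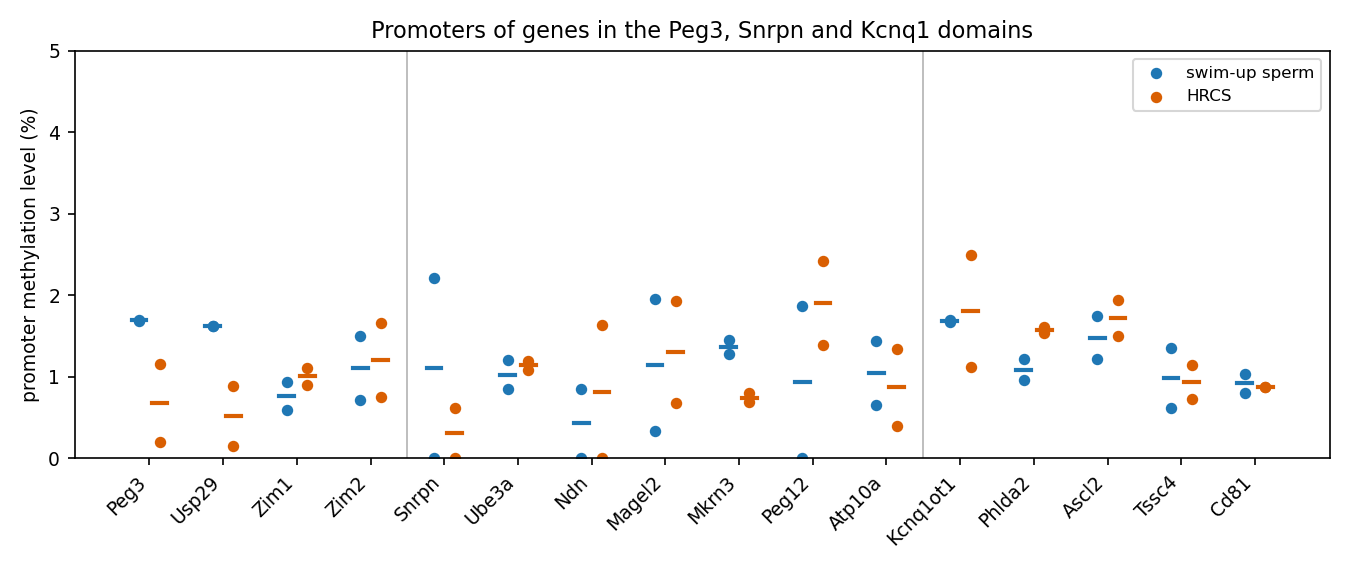
Methylation level of 16 promoters (vertical axis, %; 250 bases before to 50 after the start) in each library (points; swim-up sperm in blue, HRCS in orange), with the mean of the 2 libraries of a fraction as a bar; vertical lines separate the Peg3, Snrpn and Kcnq1 domains. Every point lies between 0 and 2.50%, and the means over the 4 libraries run from 0.621% at Ndn to 1.74% at Kcnq1ot1.

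Each HRCS library had more depth than each swim-up library at all 3 regions, and the same order held in the CG-dense windows and over all qualifying sites. The Peg3 sites held 53.0 and 46.4 calls per 1000000 calls of the library for swim-up sperm, against 64.9 and 64.4 for HRCS. The Snrpn sites held 15.7 and 13.0 against 20.6 and 21.6, and the Kcnq1ot1 sites 35.3 and 34.2 against 39.8 and 40.3. HRCS thus had 1.30, 1.47 and 1.15 times the calls of swim-up sperm, beside a ratio of 1.07 in the CG-dense windows and 1.02 over all qualifying sites (exact permutation test for each region, p = 0.333, the smallest possible). The CG-dense windows held 152387 and 149885 calls per 1000000 in swim-up sperm against 167452 and 156300 in HRCS, so the order of the libraries is not particular to the regions, and whether the ratios differ was not tested. By window, each HRCS library had more calls per 1000000 than each swim-up library in 11 of 18 windows at Peg3, 6 of 9 at Snrpn and 2 of 9 at Kcnq1ot1, where 23.9% of all windows were. The count at Kcnq1ot1 is near that background. Neighbouring windows can share reads and captured fragments, so windows of a region are not independent, and no count was tested against the background. The highest ratios, 2.02 at Peg3 and 2.05 at Snrpn, were in the windows chr7:6683001-6683200 and chr7:67149801-67150000, the first of which holds the Peg3 start and the second of which lies just downstream of the Snrpn start. One Peg3 window, chr7:6683401-6683600 upstream of the start, had the opposite order with a ratio of 0.564. Depth counts captured and sequenced DNA, and what set it apart between the fractions was not tested. It was looked at after the data had been seen, and it means that the HRCS levels of these regions rest on more calls than the swim-up levels.

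**Figure D4:**
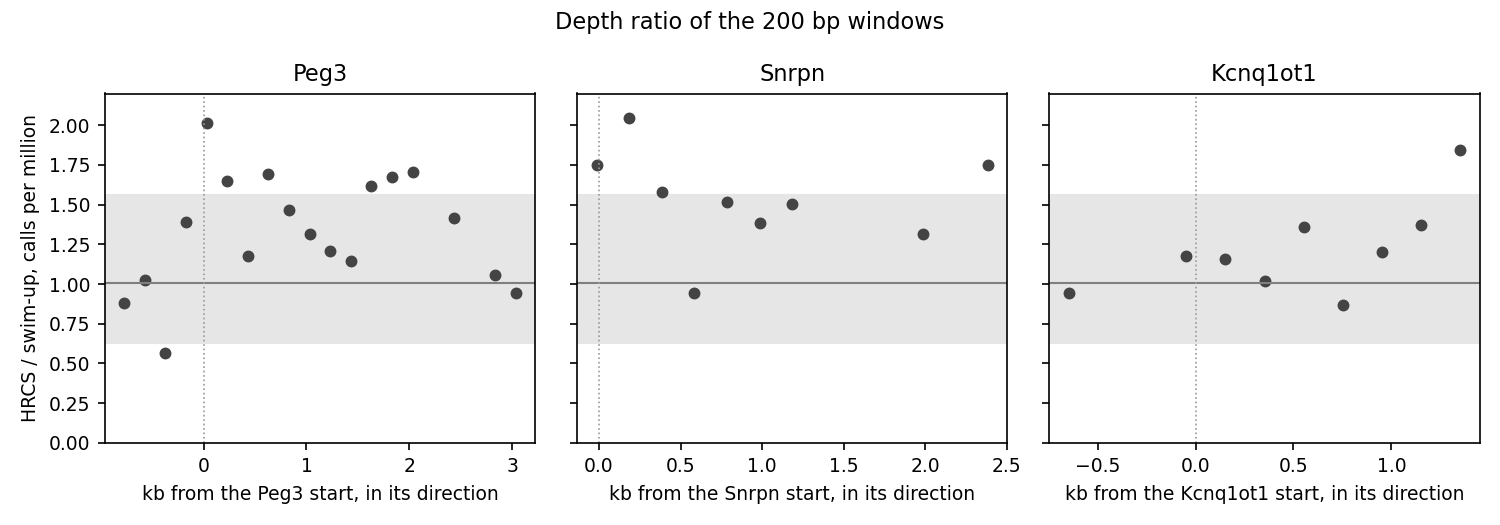
Ratio of HRCS to swim-up sperm in calls per 1000000 calls of the library (vertical axis, mean of 2 libraries each) for the 36 windows of 200 bp of the 3 regions, against their distance in kb from the gene start (horizontal axis, negative values upstream). The grey band spans the 5th to the 95th percentile of all 316993 windows, 0.631 to 1.56, and the grey line is their median, 1.01. The ratio was above 1 in 30 of the 36 windows, against 50.9% of all windows, and neighbouring windows are not independent.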

How the data were processed

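TGBS was performed by the authors with post-bisulfite adapter tagging after probe capture, as single reads of 100 cycles. Per the study's methods, reads were mapped with Bmap to mm9, the build also named in the submitters' notes. The deposited tables give, for each CG site and strand, counts of reads without normalization or header. The column that never exceeded the other was read as methylated reads, and with this reading H19 was high and CG-dense windows were low. Between 88.7% and 89.6% of calls were on the minus strand. No removal of duplicates is stated.

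Strands were merged (position of the minus row less 1), and a site was used where all 4 libraries had 5 reads or more. A level is the plain mean of site levels. Regions were compared by two-sided exact permutation of the libraries and by exact sign permutation, with Benjamini-Hochberg adjustment over 3 regions or pairs. Windows of 200 bp with at least 3 sites were tested with edgeR 4.0.16 (quasi-likelihood, a term per library, 1 dispersion, adjusted over 316993 windows) in R 4.3.3. It was also run on simulated libraries with known changes, whose spread was made to follow the level after a uniform spread recovered no change. No statement here rests on that run. Intervals are Wilson intervals at 95%, and a count of 0 was taken to allow 3. RefSeq promoters of GRCm38.p6 with at least 6 CG were placed on mm9 by CG spacing, where a unique match was found, and annotation came from GENCODE M21. Other values come from Python 3.11.15 (scipy 1.17.1, pandas 2.3.3, numpy 2.4.6), and figures from matplotlib 3.10.9.

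Named were the 3 regions, all placed genes of the domain lists, the 3 highest and the border sites, and the window with the largest difference in each region. The regions, lists and tests were chosen with earlier results of these data known. The alternatives were minimums of 1, 10 and 20 reads, pooled calls, minus-strand rows, flanks of 5 kb, a 25% border, Fisher's exact test, the replicate block and leaving out each library. Added after seeing the data were sites inside the 25% borders, all flank calls without a minimum, and leaving out libraries for the low stretch.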

Additional observations from a re-analysis of the deposited data

How the results depend on the processing

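The excess of the flank over the region at Peg3, Snrpn and Kcnq1ot1 kept its direction in all alternatives run, at 88.2 to 91.1, 67.9 to 77.5 and 86.0 to 97.0 percentage points, and no window of the 3 regions passed the adjusted p in any. At Snrpn no flank site had 5 reads in every library, so that, apart from a minimum of 1 read, the other minimums, minus-strand rows, pooled calls at 5 reads and flanks of 5 kb gave no value. At Peg3 and Kcnq1ot1 the flanks of 5 kb held the same qualifying sites, the farthest 2893 bp from the region. Their values therefore could not differ from the main ones. HRCS minus swim-up sperm at Peg3 stayed negative throughout, at -0.895 to -0.238 points, but the fractions overlapped with pooled calls and at a minimum of 20 reads. At Snrpn it was -1.06 points at a minimum of 10 reads, -0.960 at 20 reads, 0.594 at 1 read, and -0.801 to 0.273 with each library left out. At Kcnq1ot1 it was 0.164 at a minimum of 1 read, 0.0996 at 20 reads, and -1.29 to 0.981 with each library left out. At a minimum of 10 reads, pooled calls and inside the 25% borders, in this order, Peg3 minus Snrpn was -0.325, -0.453 and -0.470, Peg3 minus Kcnq1ot1 was 0.849, 0.0979 and 0.387, and Snrpn minus Kcnq1ot1 was 1.17, 0.551 and 0.856 points, each reversed from the value with all sites. The 25% borders leave out the highly methylated sites, whose share of the mean is then gone. The minimum of 10 reads also left out 150483088, 150483144 and 150483199 at Kcnq1ot1, and 6684771 and 6684773 at Peg3. Pooled calls give such thinly read sites less weight. How much of the other changes came from these sites was not tested. The low stretch of Peg3 became 4221 bp with a border at 25% and 4206 bp at 10 reads, and ranged from 4221 to 4985 bp with each library left out. That of Snrpn became 3587 bp at 10 reads.

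With the replicate number as a block (paired differences), HRCS minus swim-up sperm was again -0.613 at Peg3, -0.256 at Snrpn and -0.164 at Kcnq1ot1. These values could not differ from the main ones, since each number has 1 library of each fraction. In edgeR with the block, 0 windows of the regions passed. Same-numbered libraries did not deviate together (r = -0.00176 across 316993 windows), so the numbers were not taken to pair them. Of all windows, 9 passed the adjusted p, 11 with the block, 1 to 5 with a library left out, 6 of 231489 at 10 reads and 2397 by Fisher's exact test on pooled calls. With 2 libraries per fraction no exact permutation test of the libraries could pass 0.05.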
